A study of Mus musculus with 19 samples.

Results

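The genes described here are the ligands and receptors that steer growing axons and migrating cells: semaphorins and plexins, Slits and Robos, netrins and Unc5 receptors, and ephrins and Eph receptors. They were chosen by gene name and by level, at least 1 FPKM (fragments assigned to a gene, divided by its length and by the size of the library) in at least 3 of 19 libraries, and 61 of the 22193 genes measured met both conditions. Of 66 genes with such names, 5 stayed under the level: Epha1, Ntn3, Robo3, Unc5a and Unc5cl. Just outside the limit, Epha1 and Robo3 reached it in 2 libraries each; just inside, Epha6 did in 3 and Slit2 in 4. The 61 genes comprise 20 semaphorins, 9 plexins, 3 Slits, 3 Robos, 2 netrins, 3 Unc5 receptors, 8 ephrins and 13 Eph receptors, or 33 ligands and 28 receptors. Whole cerebella of separate C57BL/6 mice were profiled by RNA sequencing at postnatal day 60. There were 3 wild-type mice (Ctrl), 8 conditional knockouts of Gsα made with Olig1Cre (Olig1-Gnas) and 8 made with hGFAPCre (hGFAP-Gnas). The knocked-out gene is Gnas; its product Gsα is the stimulatory G protein subunit of adenylyl cyclase, and the title of the series ties its loss to medulloblastoma driven by Sonic hedgehog. Olig1 is best known from oligodendrocyte precursors and the human GFAP promoter from radial glia and astrocytes, and the labels do not name the cells in which either Cre had acted, nor whether Ctrl mice carried a Cre or a floxed allele.

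Guidance cues are read at the cell surface. Semaphorins signal through plexins, of which the secreted class 3 usually needs a neuropilin as coreceptor; Slits signal through Robo receptors, netrins through Dcc and Unc5 receptors, and ephrins through the tyrosine kinases of the Eph family, often in both directions across a cell contact. In the developing cerebellum these pathways help to place granule neuron progenitors, which divide in the outer layer, leave it by tangential and then radial migration, and extend parallel fibers. Sema6a and Plxna2 act in that migration, Plxnb2 is a plexin of dividing granule progenitors, and Unc5c is needed to keep granule cells within the cerebellar boundary.

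Values are FPKM as deposited, which allow levels of different genes to be compared per length. Differences between groups were taken in log2(FPKM + 1) and are given ± SE, so those of genes near or under 1 FPKM are smaller than the ratio of their levels, and adjusted p-values are from limma, over all genes tested. Read totals were not given; by the steps among low values 10 libraries (Ctrl 1 and 2, Olig1-Gnas 5 to 8, hGFAP-Gnas 1 to 4) had 0.838 to 1.07 of the depth of Ctrl 2, and the other 9 had 0.268 to 0.429. A listed 0 may be a failed estimate. Gnas itself is listed at 0 in Ctrl 3, and in 1 of the deposited tables also in Ctrl 1, so it does not check the labels. The labelled tissue was plain in Ctrl: 12 markers of mature granule neurons summed to 2394 to 3052 FPKM and 10 of Purkinje cells to 2768 to 4229 FPKM. Those sums were 123 to 678 and 45.6 to 783 FPKM in Olig1-Gnas, and 187 to 2085 and 139 to 2062 FPKM in hGFAP-Gnas. Markers of granule progenitors and division, 12 in number, summed to 29.5 to 34.6 FPKM in Ctrl and far more in the knockouts (Olig1-Gnas 1358 to 2518 FPKM, hGFAP-Gnas 78.1 to 1923 FPKM), and 10 markers of microglia and macrophages to 83.3 to 128, 944 to 2818 and 174 to 1925 FPKM. None of these markers was at 0 in every library. In RNA from whole tissue, fewer cells of a type and less RNA per cell cannot be told apart, and the part of these shifts in the results below was not tested. The library hGFAP-Gnas 1 stood apart from the other 7 of its group and closest to Ctrl, with the highest granule and Purkinje sums and the lowest division sum among the knockouts.

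**Figure D1:**
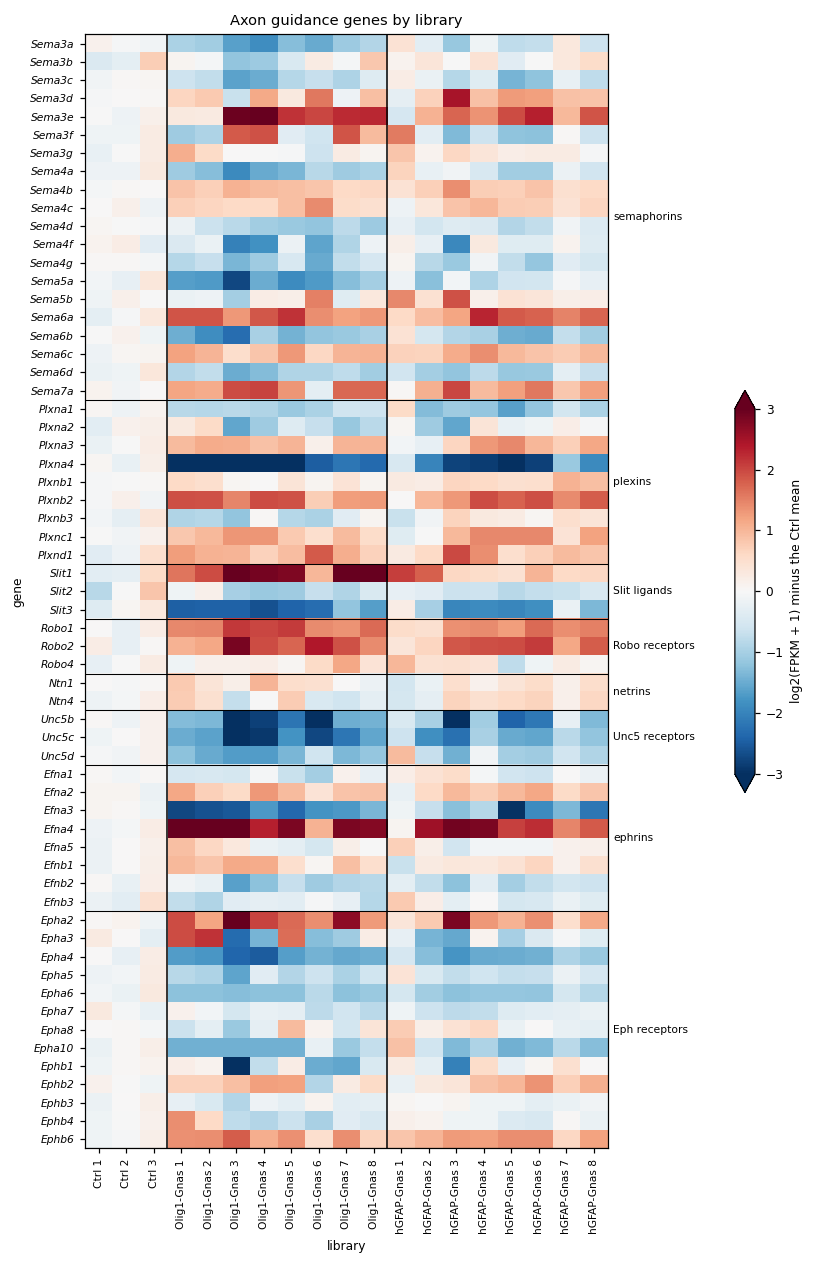
Each row is 1 of the 61 genes, ordered by family, and each column 1 of the 19 libraries; color gives log2(FPKM + 1) minus the mean of the 3 Ctrl libraries, cut at 3 in either direction. Plxna4, Unc5b, Unc5c and Efna3 are blue and Efna4, Robo1 and Robo2 red in nearly all knockout columns, while hGFAP-Gnas 1 stays pale in most rows and Epha3, Sema3f and Ephb1 are uneven across Olig1-Gnas.

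In Olig1-Gnas, 18 of the 61 genes were called higher than in Ctrl (29.5%) and 20 lower (32.8%), at an adjusted p under 0.05. Over all 14183 genes tested, 36.2% were called higher and 23.6% lower, 59.8% in all, against 62.3% of the guidance genes. As a set they thus changed about as often as other genes did. The median difference was -0.21 for the guidance genes and 0.22 for all genes. Levels of 34 of the 38 called genes did not overlap between the groups, as was true of 86.6% of all genes called. Epha6 passed the filter on low values through the 3 Ctrl libraries alone, and Efna4 and Epha2 through knockout libraries alone, so their directions were built into passing it and their counts support nothing. In this comparison Epha10, Sema3a, Slit3 and Unc5d also needed the Ctrl libraries to pass, and Slit1 the knockout libraries. No test of Olig1-Gnas against Ctrl is given below for any of these genes. Semaphorins, plexins, Slits, ephrins and Eph receptors each had called genes in both directions, Robos only higher and Unc5 receptors only lower. Without Olig1-Gnas 6, which lay outside the range of the other 7 of its group for several of these genes, 19 were called higher and 21 lower (67.5% of all genes were called).

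In hGFAP-Gnas, 14 of 60 genes tested were called higher (23.3%) and 9 lower (15.0%), against 26.1% and 12.8% of 14305 genes, or 38.9% in either direction. Slit2 was too low to be tested there. The median difference was 0.00625, and 0.19 over all genes. The groups did not overlap for 16 of the 23 called genes, and for 55.7% of all genes called. With quantile normalization, which moved the median over all genes from 0.22 to 0.057 in Olig1-Gnas and from 0.19 to -0.013 in hGFAP-Gnas, the hGFAP-Gnas calls were 9 higher and 15 lower. Calls over all genes and over guidance genes alike leaned on single libraries. Without hGFAP-Gnas 1 there were 20 higher and 19 lower among the guidance genes (57.4% of all genes called); without Ctrl 1 there were 3 and 3 (7.36%), without Ctrl 2 there were 2 and 1 (5.74%), and without Ctrl 3 there were 5 and 2 (13.5%). Epha4, Ephb6 and Sema6c were called under each of these 4 omissions. Of 24 other settings in all, their calls were kept in 22, 21 and 22. The hGFAP-Gnas calls of Efna2, Sema3e, Unc5b and Plxnd1 were kept in only 6, 7, 7 and 9. Those of Efna3 and Sema4d were kept in 10 and 11 of the 24, and that of Epha2 in 9 of 22. With the deeper libraries alone (2 Ctrl, 4 hGFAP-Gnas) none of the 22 genes called in the whole comparison and tested there was called, and 6 of all 13872 genes were. Both comparisons share the 3 Ctrl mice, so a like direction in both is not 2 independent observations.

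**Figure D2:**
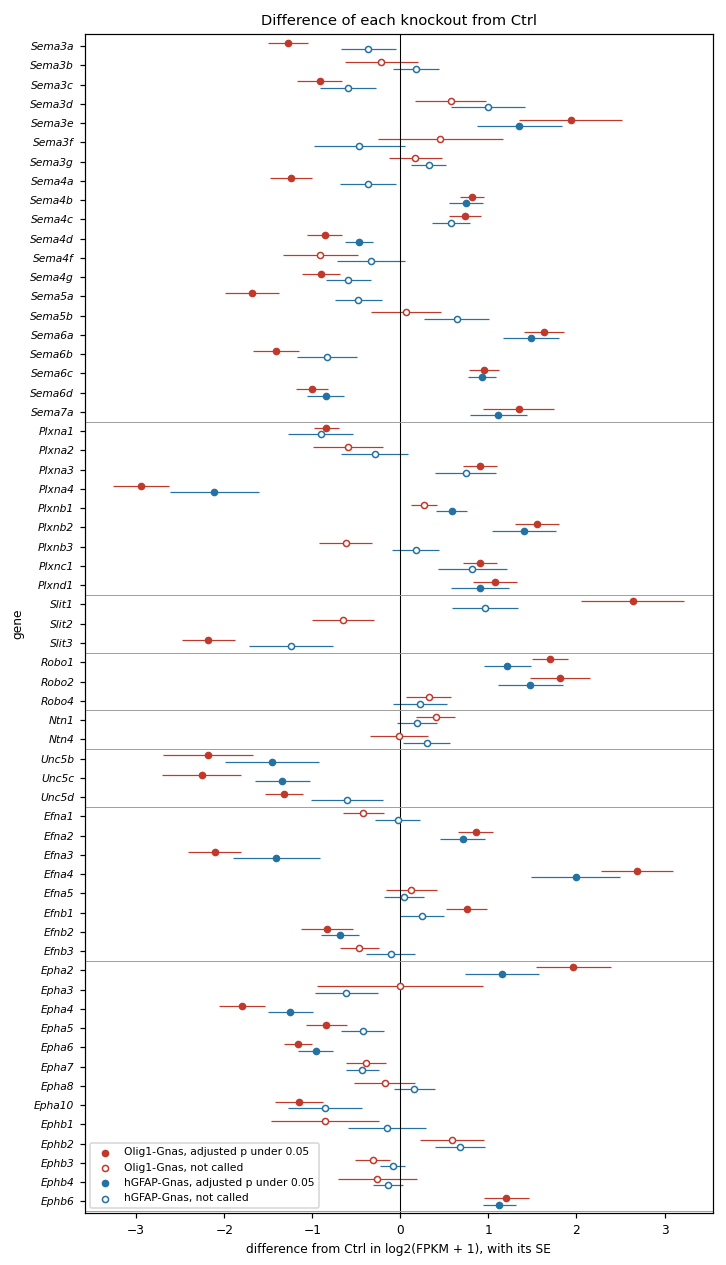
Points give the difference of Olig1-Gnas (red) and hGFAP-Gnas (blue) from Ctrl in log2(FPKM + 1) for each guidance gene and bars its SE; filled points have an adjusted p under 0.05. Plxna4 lies farthest to the left (-2.94 and -2.12) and Efna4 farthest to the right (2.69 and 1.99). Efna4 passed the filter on low values through knockout libraries alone, so its direction was built in.

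Among the semaphorins, Sema7a, Sema6a and Sema3e rose in both knockouts and Sema6d and Sema4d fell in both. Sema7a, a GPI-anchored semaphorin that binds plexin C1 and integrins, was the most abundant guidance gene in all 3 groups. Its level was 79.6, 68.9 and 74.1 FPKM in Ctrl 1, 2 and 3, 60.2 to 306 FPKM (median 216) in Olig1-Gnas and 76.2 to 299.5 FPKM (median 165) in hGFAP-Gnas. Olig1-Gnas 6 at 60.2 FPKM was below every Ctrl and hGFAP-Gnas 1 at 76.2 FPKM lay among them, while the other 14 knockout libraries were above all Ctrl. The differences were 1.34 ± 0.40 (SE), adjusted p = 0.0122 in Olig1-Gnas and 1.11 ± 0.33 (SE), adjusted p = 0.0233 in hGFAP-Gnas. Sema7a held 26.1% ± 1.99 (SD, n = 3) of all semaphorin FPKM in Ctrl, 50.2% ± 12 (n = 8) in Olig1-Gnas and 44.2% ± 11.1 (n = 8) in hGFAP-Gnas. The other 19 semaphorins together stood at 209.9 ± 8.85, 189.9 ± 14.7 and 208 ± 24.2 FPKM, so the larger semaphorin total of the knockouts lay in Sema7a.

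All 4 measured members of the transmembrane class 6 changed in Olig1-Gnas, and in opposite directions. Sema6a, the plexin A2 and A4 ligand of migrating granule cells, was at 3.92, 4.89 and 6.49 FPKM in Ctrl, 12.8 to 25.9 FPKM (median 17.8) in Olig1-Gnas and 8.14 to 28.5 FPKM (median 17.6) in hGFAP-Gnas, and every knockout library lay above every Ctrl. It rose by 1.63 ± 0.23 (SE), adjusted p = 7.98e-05 in Olig1-Gnas and by 1.48 ± 0.32 (SE), adjusted p = 0.00984 in hGFAP-Gnas. Sema6c went from 12.7 ± 1.18 FPKM (SD, n = 3) to 25.8 ± 4.85 and 25.4 ± 4.73 FPKM (n = 8 each), with differences of 0.95 ± 0.17 and 0.93 ± 0.16 (adjusted p = 4.56e-04 and 0.00688). Sema6d, a ligand of plexin A1, moved the other way. It was the third most abundant guidance gene of Ctrl at 32.3, 34.3 and 47.3 FPKM, and stood at 12.7 to 22.1 FPKM (median 19.6) in Olig1-Gnas and 15.9 to 30.2 FPKM (median 19.6) in hGFAP-Gnas, with no overlap between Ctrl and either knockout. The differences were -1.01 ± 0.18 (SE), adjusted p = 4.90e-04 and -0.85 ± 0.21 (SE), adjusted p = 0.0134. Sema6b was at 22.7, 25.02 and 20.9 FPKM in Ctrl and 3.93 to 11.2 FPKM (median 8.71) in Olig1-Gnas, where it fell (-1.41 ± 0.26 (SE), adjusted p = 6.21e-04). In hGFAP-Gnas it ranged from 7.37 to 31.4 FPKM (median 11.6), with hGFAP-Gnas 1 above every Ctrl and the other 7 below, and was not called (adjusted p = 0.0691).

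Of the 7 secreted class 3 semaphorins, Sema3e was higher and Sema3a and Sema3c lower in Olig1-Gnas. Sema3e, which can bind plexin D1 without a neuropilin, was at 3.59, 3.2 and 4.19 FPKM in Ctrl, 4.63 to 42.9 FPKM (median 20.5) in Olig1-Gnas and 2.27 to 22.4 FPKM (median 12.8) in hGFAP-Gnas. Olig1-Gnas 1 and 2 lay just above Ctrl at 4.73 and 4.63 FPKM, the other 6 of that group reached at least 17.7 FPKM, and hGFAP-Gnas 1 was below every Ctrl. Its differences were 1.93 ± 0.59 (SE), adjusted p = 0.0136 and 1.35 ± 0.48 (SE), adjusted p = 0.0448. Plexin D1 itself (Plxnd1) went from 4.02, 4.73 and 7.98 FPKM to 9.33 to 21.9 FPKM (median 12.1) and 6.66 to 24.1 FPKM (median 9.86), and was called higher in both knockouts (1.07 ± 0.25 and 0.90 ± 0.33, adjusted p = 0.00272 and 0.0487); all Olig1-Gnas libraries lay above Ctrl, and hGFAP-Gnas 1 did not. Sema3a, the classic repellent read through neuropilin 1 and plexin A, was at 3.34, 2.85 and 2.65 FPKM in Ctrl and 0.0886 to 1.13 FPKM (median 0.741) in Olig1-Gnas, without overlap (-1.28 ± 0.23 (SE)). It passed the filter there only with the Ctrl libraries, so no test is given. In hGFAP-Gnas it ranged over 0.796 to 4.33 FPKM (median 1.87), above and below Ctrl, and was not called. Sema3c fell in Olig1-Gnas from 2.92 ± 0.264 to 1.15 ± 0.574 FPKM (-0.91 ± 0.26 (SE), adjusted p = 0.00856). Sema3b, Sema3d, Sema3f and Sema3g were called in neither knockout, with Ctrl means between 1.59 and 3.67 FPKM.

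In class 4, transmembrane ligands mostly of plexins of class B, Sema4b and Sema4c rose and Sema4a, Sema4d and Sema4g fell in Olig1-Gnas, and 1 each, Sema4b and Sema4d, did so in hGFAP-Gnas. Sema4g, the most abundant of them in Ctrl, was at 39.1, 39.3 and 36.7 FPKM in Ctrl and 12.7 to 27.2 FPKM (median 21.7) in Olig1-Gnas, where all 8 libraries lay below Ctrl (-0.90 ± 0.22 (SE), adjusted p = 0.00357). The hGFAP-Gnas range was 16.7 to 40.5 FPKM (median 24.4), reaching above Ctrl in hGFAP-Gnas 1, and the difference was not called (adjusted p = 0.0809). Sema4d, the ligand of plexin B1, stood at 20.7, 19.8 and 19.4 FPKM in Ctrl, 8.23 to 17.7 FPKM (median 10.02) in Olig1-Gnas and 10.4 to 18.4 FPKM (median 14.6) in hGFAP-Gnas, every knockout library under every Ctrl. Its differences were -0.86 ± 0.20 (SE), adjusted p = 0.00285 and -0.47 ± 0.16 (SE), adjusted p = 0.0391. Sema4b went from 4.703, 5.08 and 4.95 FPKM to 7.88 to 11.2 FPKM (median 9.54) and 7.04 to 14.6 FPKM (median 8.73), again without overlap, by 0.81 ± 0.14 and 0.75 ± 0.19 (adjusted p = 3.83e-04 and 0.0158). Sema4c rose in Olig1-Gnas by 0.74 ± 0.19 (SE), adjusted p = 0.00464, with Olig1-Gnas 6 the highest library at 35.6 FPKM, and just missed the threshold in hGFAP-Gnas (0.58 ± 0.22 (SE), adjusted p = 0.0519). Sema4a went from 8.45 ± 1.76 to 3.05 ± 0.8997 FPKM in Olig1-Gnas (-1.24 ± 0.24 (SE), adjusted p = 7.57e-04) and was 6.74 ± 3.26 FPKM in hGFAP-Gnas, not called. Sema4f was called in neither. Of the 2 class 5 semaphorins, Sema5b was called in neither knockout, and Sema5a fell in Olig1-Gnas and is described with the comparison of the knockouts.

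Among the plexins, Plxnb2 rose and Plxna4 fell in both knockouts, and both moved far. Plxnb2, the receptor of Sema4c and Sema4g in dividing granule progenitors, was at 34.3, 39.5 and 32.7 FPKM in Ctrl, 59.3 to 139 FPKM (median 117) in Olig1-Gnas and 35.5 to 141 FPKM (median 109) in hGFAP-Gnas. All knockout libraries lay above Ctrl except hGFAP-Gnas 1 at 35.5 FPKM, and Olig1-Gnas 6 was the lowest of its group at 59.3 FPKM. The differences were 1.55 ± 0.25 (SE), adjusted p = 2.12e-04 and 1.40 ± 0.36 (SE), adjusted p = 0.0162. Plxna4, which reads class 3 semaphorins with neuropilins and class 6 semaphorins directly, was at 13.4, 10.9 and 14.5 FPKM in Ctrl, 0.195 to 2.096 FPKM (median 0.591) in Olig1-Gnas and 0.729 to 8.84 FPKM (median 1.75) in hGFAP-Gnas, with no overlap. It had the largest fall among guidance genes in both comparisons, -2.94 ± 0.32 (SE), adjusted p = 1.05e-05 and -2.12 ± 0.50 (SE), adjusted p = 0.0127. The highest knockout values were 8.84 and 5.401 FPKM in hGFAP-Gnas 1 and 7, and Olig1-Gnas 7, 8 and 6 were the highest of their group (2.096, 1.75 and 1.47 FPKM). Of all plexin FPKM, Plxnb2 held 27.9% ± 3.80 (SD, n = 3) in Ctrl, 51.9% ± 6.66 (n = 8) in Olig1-Gnas and 46.9% ± 9.04 (n = 8) in hGFAP-Gnas. The share of Plxna4 was 10.1% ± 1.30, 0.494% ± 0.453 and 1.69% ± 2.16.

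**Figure D3:**
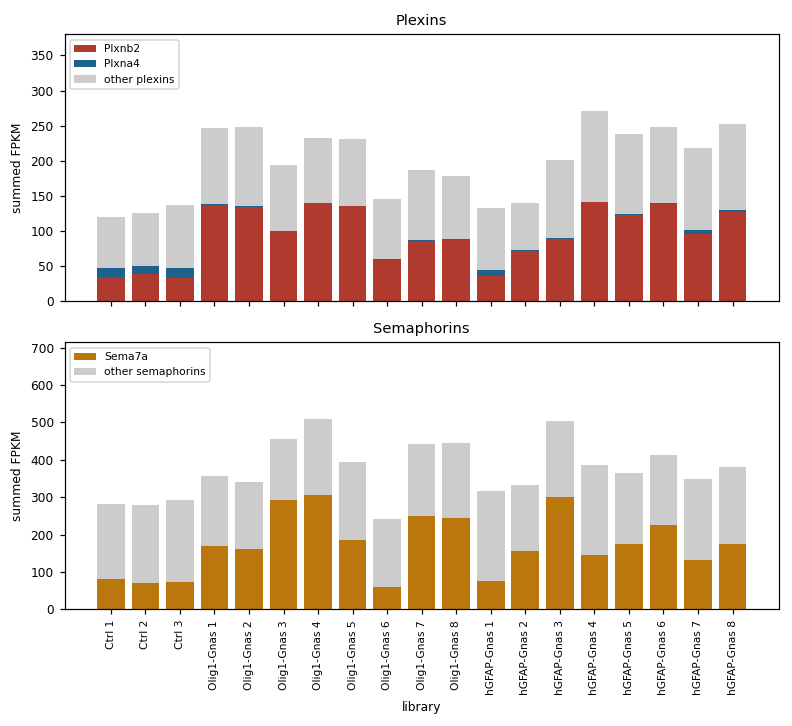
Bars give the summed FPKM of the 9 plexins (top) and the 20 semaphorins (bottom) in each library, with Plxnb2, Plxna4 and Sema7a colored. The gray remainder of the semaphorins is similar across groups (means of 209.9, 189.9 and 208 FPKM), and the Plxna4 segment, 10.1% of plexin FPKM in Ctrl, is hardly visible in most knockout libraries.

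The other plexins of class A went both ways in Olig1-Gnas: Plxna3 rose, Plxna1 fell and Plxna2 was not called. Plxna3 was at 9.93, 11.4 and 13.6 FPKM in Ctrl and 13.03 to 25.99 FPKM (median 24.3) in Olig1-Gnas, where only Olig1-Gnas 6 (13.03 FPKM) fell within the Ctrl range (0.90 ± 0.19 (SE), adjusted p = 0.00156). Plxna1, the most abundant of class A in Ctrl, was at 16.9, 14.3 and 17.4 FPKM there and 6.9 to 10.3 FPKM (median 8.54) in Olig1-Gnas, without overlap (-0.84 ± 0.14 (SE), adjusted p = 3.01e-04). Neither was called in hGFAP-Gnas, where Plxna1 was 24.5 FPKM in hGFAP-Gnas 1 and at most 10.8 FPKM in the other 7. Plxna2, the Sema6a receptor of granule cells, stood at 11.9 ± 2.27 FPKM in Ctrl, 8.46 ± 5.16 in Olig1-Gnas and 10.3 ± 4.19 in hGFAP-Gnas, with adjusted p of 0.216 and 0.547. Plxnc1, the receptor of Sema7a, went from 7.93, 7.44 and 8.86 FPKM to 11.8 to 21.8 FPKM (median 15.7) in Olig1-Gnas, all above Ctrl (0.90 ± 0.19 (SE), adjusted p = 0.00143). In hGFAP-Gnas its level was 6.06 to 23.5 FPKM (median 18.4), with hGFAP-Gnas 1 below Ctrl, and it was not called (0.82 ± 0.39, adjusted p = 0.1104). Plxnb1 rose in hGFAP-Gnas (0.58 ± 0.18 (SE), adjusted p = 0.026), where all 8 libraries lay above Ctrl, and was not called in Olig1-Gnas. Plxnb3 was called in neither.

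Slits and their receptors moved unlike each other: Robo1 and Robo2 rose in both knockouts, while among the ligands levels of Slit1 were higher and of Slit3 lower in Olig1-Gnas. Robo1, which binds all Slits, was at 4.23, 3.34 and 5.04 FPKM in Ctrl, 12.2 to 21.6 FPKM (median 14.4) in Olig1-Gnas and 6.24 to 15.8 FPKM (median 12.5) in hGFAP-Gnas. Robo2 was at 5.797, 3.89 and 4.93 FPKM in Ctrl, 11 to 40.7 FPKM (median 19.6) in Olig1-Gnas and 6.498 to 23.9 FPKM (median 19.8) in hGFAP-Gnas. For both genes every knockout library lay above every Ctrl, and hGFAP-Gnas 1 and 2 were the lowest of all knockouts. Robo1 rose by 1.70 ± 0.21 (SE), adjusted p = 3.12e-05 in Olig1-Gnas and 1.21 ± 0.27 (SE), adjusted p = 0.0102 in hGFAP-Gnas, and Robo2 by 1.81 ± 0.34 (SE), adjusted p = 6.53e-04 and 1.48 ± 0.37 (SE), adjusted p = 0.01498. Robo4, a Robo of endothelium, was called in neither (0.32 ± 0.26 and 0.22 ± 0.30; adjusted p = 0.301 and 0.568), and 8 endothelial markers summed to 39.5 to 74.1 FPKM in Ctrl, beside 41.7 to 103 FPKM (Olig1-Gnas) and 31.3 to 89.8 FPKM (hGFAP-Gnas). The 3 Robos together went from 11 ± 1.71 FPKM (SD, n = 3) to 40.0 ± 12.3 and 30.6 ± 9.002 FPKM (n = 8 each).

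Slit1 was near the floor of the Ctrl libraries, at 0.104, 0.128 and 1.05 FPKM, and reached 1.71 to 20.7 FPKM (median 8.74) in Olig1-Gnas, all above Ctrl. Olig1-Gnas 3 and 8 were highest at 20.7 and 19.4 FPKM and Olig1-Gnas 6 lowest. The difference was 2.64 ± 0.58 (SE), but Slit1 passed the filter only with knockout libraries, so no test of it is given. In hGFAP-Gnas Slit1 was at 0.879 to 4.73 FPKM (median 1.09), highest in hGFAP-Gnas 1 and 2 and close to Ctrl 3 in most others. The difference was 0.96 ± 0.38 (SE), but there too Slit1 passed the filter only with knockout libraries, so no test is given. Slit3 took the reverse course. It was at 3.703, 5.41 and 6.56 FPKM in Ctrl. It is listed at 0 in Olig1-Gnas 4, at 0.118 to 0.256 FPKM in 5 others and at 0.944 and 1.69 FPKM in Olig1-Gnas 8 and 7. The difference was -2.18 ± 0.30 (SE), but Slit3 passed the filter there only with the Ctrl libraries, so no test is given. hGFAP-Gnas 1 and 7 lay within the Ctrl range of Slit3 (6.11 and 4.296 FPKM), the other 6 were at most 2.08 FPKM, and the difference was not called (-1.25 ± 0.48, adjusted p = 0.0561). Slit2 was low throughout, at 0.264, 1.22 and 2.98 FPKM in Ctrl and 0.0326 to 1.47 FPKM (median 0.2901) in Olig1-Gnas, and was not called.

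Netrins and their repulsive receptors parted: neither netrin was called in either knockout, and Unc5b and Unc5c fell in both. Ntn1, the netrin that both attracts through Dcc and repels through Unc5 receptors, was at 18.9, 18.2 and 19.4 FPKM in Ctrl, 16.6 to 39.3 FPKM (median 25.7) in Olig1-Gnas and 12.7 to 27.9 FPKM (median 22.95) in hGFAP-Gnas (0.40 ± 0.22 and 0.19 ± 0.23; adjusted p = 0.139 and 0.513). Ntn4, a netrin of basement membranes, was at 15.1, 16.04 and 19.4 FPKM, 9.77 to 29.2 FPKM (median 15.1) and 11.4 to 27.3 FPKM (median 24.7). For both netrins the knockout libraries lay on either side of Ctrl. Unc5b was at 25.8, 22.5 and 27.8 FPKM in Ctrl, 1.28 to 9.75 FPKM (median 6.65) in Olig1-Gnas and 2.12 to 21.1 FPKM (median 10.6) in hGFAP-Gnas, and Unc5c at 14.4, 16.1 and 17.3 FPKM, 0.193 to 5.0 FPKM (median 3.31) and 2.597 to 9.88 FPKM (median 5.68). No knockout library reached any Ctrl value for either gene. Unc5b fell, with differences of -2.19 ± 0.51 (SE), adjusted p = 0.00287 in Olig1-Gnas and -1.46 ± 0.53 (SE), adjusted p = 0.0488 in hGFAP-Gnas, and Unc5c with -2.26 ± 0.45 (SE), adjusted p = 0.00105 and -1.34 ± 0.31 (SE), adjusted p = 0.0116. Within Olig1-Gnas both were lowest in Olig1-Gnas 3, at 1.28 FPKM of Unc5b and 0.193 FPKM of Unc5c. Unc5d was at 2.204, 2.08 and 2.59 FPKM in Ctrl and 0.0278 to 1.15 FPKM (median 0.281) in Olig1-Gnas (-1.32 ± 0.22 (SE)). It passed the filter there only with the Ctrl libraries, so no test is given. In hGFAP-Gnas, hGFAP-Gnas 1 exceeded Ctrl at 5.35 FPKM and no call was made for Unc5d (-0.61 ± 0.41). The 3 Unc5 receptors together went from 43.6 ± 3.67 FPKM (SD, n = 3) to 9.17 ± 5.33 FPKM in Olig1-Gnas and 18.0 ± 10.2 FPKM in hGFAP-Gnas (n = 8 each).

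The attractive netrin receptor Dcc, from a list of 18 coreceptors and other guidance receptors, went the other way. It was at 0.585 ± 0.262 FPKM (SD, n = 3) in Ctrl, 28.1 to 59.6 FPKM (median 40.4) in Olig1-Gnas and 2.12 to 44.6 FPKM (median 37.96) in hGFAP-Gnas, with differences of 4.78 ± 0.21 (SE) and 3.92 ± 0.71 (SE). The highest Ctrl library was at 0.849 FPKM, so Dcc passed the filter through knockout libraries alone. These values are a description and no test is given. No knockout library was as low as Ctrl. In Ctrl the 3 Unc5 receptors together thus far exceeded Dcc, and in the knockouts the mean of Dcc was above their summed mean.

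**Figure D4:**
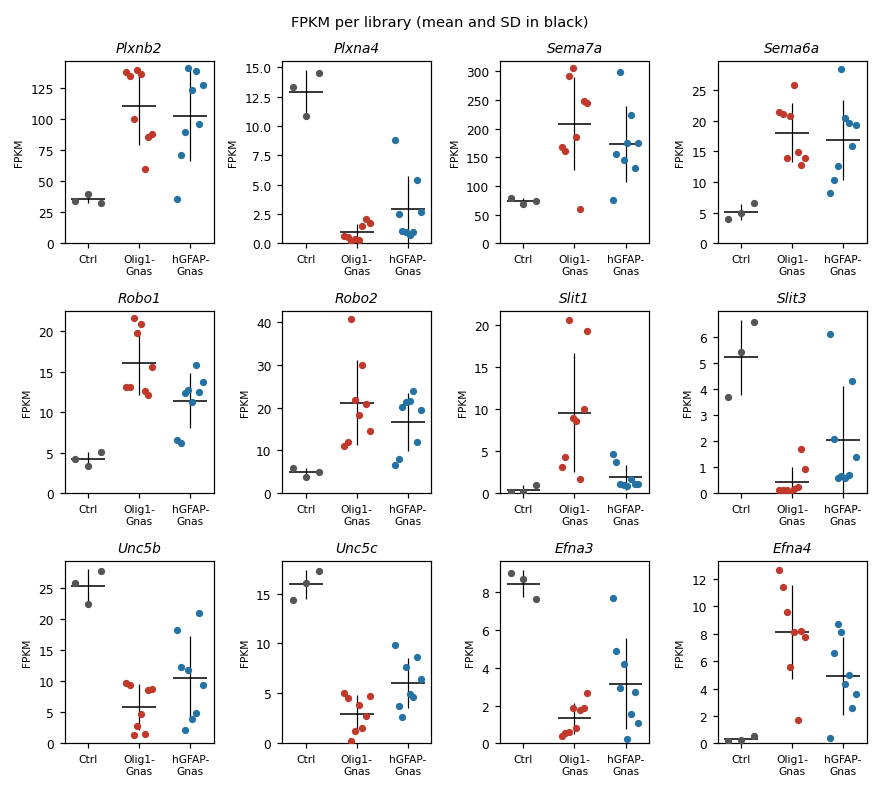
Points are single libraries of Ctrl (gray, n = 3), Olig1-Gnas (red, n = 8) and hGFAP-Gnas (blue, n = 8), with FPKM on a linear axis from 0; black lines give the mean and 1 SD. Robo1 and Robo2 of all knockout libraries lie above Ctrl and Unc5b and Unc5c below, and in the panels of Plxnb2, Sema7a, Efna3 and Efna4 the blue point at Ctrl level or nearest to it is hGFAP-Gnas 1.

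Among the ephrins, Efna4 and Efna3 changed in opposite directions, although the genes are neighbors. Efna3 (chromosome 3, 89118873 to 89126801, mm9) and Efna4 (chromosome 3, 89137315 to 89141950, mm9) lie 10.5 kb apart, and Efna1 (chromosome 3, 89075652 to 89084873) follows on the other side of Efna3 at 34.0 kb. All 3 encode GPI-anchored ligands of EphA receptors. To show what the neighbors start with, promoters of Efna4 and Efna3 from the RefSeq table of GRCm38.p6, a later build than the files use, are printed from 250 bases before to 50 after the start site. Both are on the minus strand, that of Efna4 at chr3:89337979-89338278 and that of the upstream of 2 Efna3 start sites at chr3:89322890-89323189. Capitals mark an E-box with the letters CAGATG.
Efna4: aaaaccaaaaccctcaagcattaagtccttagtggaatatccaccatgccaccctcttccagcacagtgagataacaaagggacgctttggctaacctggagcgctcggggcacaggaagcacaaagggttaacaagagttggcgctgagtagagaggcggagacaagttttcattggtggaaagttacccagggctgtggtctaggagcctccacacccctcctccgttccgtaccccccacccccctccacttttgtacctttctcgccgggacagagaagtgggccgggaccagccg
Efna3: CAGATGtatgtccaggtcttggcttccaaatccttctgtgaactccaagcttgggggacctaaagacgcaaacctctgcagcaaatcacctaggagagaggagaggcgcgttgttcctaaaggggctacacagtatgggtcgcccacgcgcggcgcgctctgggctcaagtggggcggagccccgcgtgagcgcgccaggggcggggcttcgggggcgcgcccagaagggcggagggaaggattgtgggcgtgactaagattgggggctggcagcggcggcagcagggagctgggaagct

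Efna4 was the lowest of all 61 genes in Ctrl, at 0.161, 0.245 and 0.509 FPKM, and stood at 1.68 to 12.7 FPKM (median 8.18) in Olig1-Gnas and 0.363 to 8.72 FPKM (median 4.68) in hGFAP-Gnas. All Olig1-Gnas libraries lay above Ctrl, Olig1-Gnas 6 least so (1.68 FPKM), and all hGFAP-Gnas libraries did but hGFAP-Gnas 1 at 0.363 FPKM. Its differences were 2.69 ± 0.41 (SE) in Olig1-Gnas and 1.99 ± 0.50 (SE) in hGFAP-Gnas. Since only knockout libraries brought Efna4 over the limit of 1 FPKM, these values are a description and no test is given. Efna3 was at 9.03, 8.72 and 7.63 FPKM in Ctrl, 0.415 to 2.66 FPKM (median 1.29) in Olig1-Gnas and 0.211 to 7.697 FPKM (median 2.84) in hGFAP-Gnas, where hGFAP-Gnas 1 (7.697 FPKM) lay within Ctrl and the rest below. It fell, with differences of -2.11 ± 0.30 (SE), adjusted p = 1.01e-04 in Olig1-Gnas and -1.41 ± 0.49 (SE), adjusted p = 0.0425 in hGFAP-Gnas. Of all ephrin FPKM, Efna4 held 0.623% ± 0.283 (SD, n = 3) in Ctrl, 17.7% ± 6.73 (n = 8) in Olig1-Gnas and 10.7% ± 5.43 (n = 8) in hGFAP-Gnas. Efna3 held 18.3% ± 3.88, 3.05% ± 2.06 and 6.22% ± 3.92, while the ephrin total barely moved, at 47.2 ± 7.01, 45.0 ± 5.58 and 46.7 ± 8.01 FPKM. Their neighbor Efna1 was at 4.57, 4.1 and 4.53 FPKM in Ctrl, 1.65 to 4.92 FPKM (median 2.85) in Olig1-Gnas and 2.502 to 6.94 FPKM (median 4.296) in hGFAP-Gnas, and was called in neither.

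Of the other ephrins, Efna2 rose in both knockouts, from 3.74, 3.697 and 2.94 FPKM to 4.94 to 9.94 FPKM (median 7.11) in Olig1-Gnas and 2.81 to 8.88 FPKM (median 6.68) in hGFAP-Gnas, by 0.85 ± 0.20 (SE), adjusted p = 0.00303 and 0.71 ± 0.26 (SE), adjusted p = 0.0472. In hGFAP-Gnas all libraries except hGFAP-Gnas 1 exceeded Ctrl. Efnb2, a transmembrane ephrin of vessels and neural progenitors, was at 6.59, 5.44 and 7.496 FPKM in Ctrl, 1.399 to 5.901 FPKM (median 3.13) in Olig1-Gnas and 2.17 to 5.09 FPKM (median 3.69) in hGFAP-Gnas, and fell in both (-0.83 ± 0.30 and -0.69 ± 0.22; adjusted p = 0.0299 and 0.0299). All hGFAP-Gnas libraries lay below Ctrl, and Olig1-Gnas 1 lay within it. The Olig1-Gnas call of Efnb2 was lost without any 1 of the 3 Ctrl libraries. It was also lost with Y-linked signal (Ddx3y of at least 1 FPKM) as a term. That signal was found in 2 of the 3 Ctrl and 2 of the 8 Olig1-Gnas mice. Efnb1 rose in Olig1-Gnas by 0.75 ± 0.24 (SE), adjusted p = 0.0162, with Olig1-Gnas 6 within the Ctrl range, and was not called in hGFAP-Gnas. Its Olig1-Gnas call too was lost with the Y-linked term, and without Ctrl 1 or Ctrl 2. Efnb3, the most abundant ephrin in all 3 groups at 19.1 ± 6.23 FPKM in Ctrl, 13.4 ± 3.14 in Olig1-Gnas and 17.8 ± 6.63 in hGFAP-Gnas, and Efna5 were called in neither.

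Among the Eph receptors, Ephb6 rose and Epha4 fell in both knockouts, and Epha5 fell in Olig1-Gnas. Levels of Epha2 were higher in both knockouts and those of Epha10 lower in Olig1-Gnas, each in the direction that passing the filter favored. Epha2 (chromosome 4, 140857155 to 140885293, mm9), a receptor of ephrin-A ligands best known from epithelia and tumors, was at 0.484, 0.563 and 0.328 FPKM in Ctrl, 2.31 to 15.1 FPKM (median 4.19) in Olig1-Gnas and 0.857 to 9.25 FPKM (median 2.08) in hGFAP-Gnas, and no knockout library was as low as any Ctrl. Olig1-Gnas 3 (15.1 FPKM) and hGFAP-Gnas 3 (9.25 FPKM) were the highest. Its differences were 1.96 ± 0.43 (SE) and 1.16 ± 0.42 (SE). Since only knockout libraries brought Epha2 over the limit of 1 FPKM, these values are a description and no test is given. Since Gsα acts through cyclic AMP, promoters were searched on both strands for the full cyclic AMP response element, letters TGACGTCA. RefSeq promoters (GRCm38.p6, 68 of them) were found for 52 of the 61 genes, and Epha2 was the only one of the 52 with this element, which 1.79% of all 32851 promoters hold. The promoter of Epha2 lies at chr4:141300971-141301270 on the plus strand, and capitals mark the element, whose first base is 33 bases before the start site.
Epha2: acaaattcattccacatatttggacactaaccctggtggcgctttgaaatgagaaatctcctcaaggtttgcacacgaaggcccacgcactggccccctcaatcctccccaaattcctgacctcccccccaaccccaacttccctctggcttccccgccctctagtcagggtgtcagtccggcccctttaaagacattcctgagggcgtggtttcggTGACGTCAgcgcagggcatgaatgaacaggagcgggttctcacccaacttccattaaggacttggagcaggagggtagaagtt

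The match is a description of letters in this window and no evidence of binding. The GLI motif GACCACCCA was in no promoter of the 52 genes, and the E-box CAGCTG in those of 11 genes. The E-box CAGATG was in those of 4 genes, Efna3, Epha6, Sema3c and Sema4a. Of all promoters, 0.253%, 16.3% and 17.2% hold these 3 motifs. Some genes have more than 1 promoter, so counts of genes and shares of promoters do not compare directly.

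Epha4, which binds ephrins of both classes, was at 7.53, 6.13 and 8.92 FPKM in Ctrl, 0.497 to 2.14 FPKM (median 1.68) in Olig1-Gnas and 1.495 to 4.99 FPKM (median 2.302) in hGFAP-Gnas. Ctrl and both knockouts were fully apart, with hGFAP-Gnas 1 nearest to Ctrl. It fell, with differences of -1.80 ± 0.26 (SE), adjusted p = 1.11e-04 and -1.25 ± 0.25 (SE), adjusted p = 0.00847. Ephb6, a kinase-dead Eph receptor, moved the other way, from 3.05, 3.37 and 4.01 FPKM to 5.32 to 14.8 FPKM (median 10.5) in Olig1-Gnas and 5.87 to 10.8 FPKM (median 9.36) in hGFAP-Gnas, again with no overlap. Its differences were 1.20 ± 0.26 (SE), adjusted p = 0.00159 and 1.12 ± 0.19 (SE), adjusted p = 0.00628. Epha6 was at 1.28, 1.097 and 1.94 FPKM in Ctrl, is listed at 0 in Olig1-Gnas 3 and was at most 0.385 FPKM in Olig1-Gnas and 0.675 FPKM in hGFAP-Gnas. Since only Ctrl libraries brought it over the limit of 1 FPKM, these levels are a description and no test is given. Epha10 was at 1.34, 1.76 and 2.06 FPKM in Ctrl and is listed at 0 in Olig1-Gnas 1 to 5 and at 1.302, 0.2502 and 0.657 FPKM in Olig1-Gnas 6, 7 and 8 (-1.15 ± 0.27 (SE)). Epha10 too passed the filter there only with the Ctrl libraries, so no test is given for it. Both genes were low even in Ctrl. Epha5 went from 2.25 ± 0.487 to 0.8496 ± 0.433 FPKM in Olig1-Gnas (-0.84 ± 0.24 (SE), adjusted p = 0.00867) and was not called in hGFAP-Gnas.

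The remaining 7 Eph receptors were called in neither knockout. They include the most abundant ones, Epha8 at 22.9 ± 0.801 FPKM in Ctrl, 22.2 ± 11.3 in Olig1-Gnas and 26.7 ± 8.09 in hGFAP-Gnas, and Ephb2 at 15.8 ± 1.52, 26.2 ± 9.88 and 27.2 ± 9.1 FPKM. Ephb2 exceeded Ctrl in 7 of 8 libraries of each knockout and missed the threshold, with differences of 0.58 ± 0.36 (SE), adjusted p = 0.185 and 0.68 ± 0.28 (SE), adjusted p = 0.0754. Ephb3 and Ephb4 had Ctrl means of 1.48 and 2.10 FPKM, and Epha7 was lower on average in both knockouts without a call (adjusted p = 0.158 and 0.0903). Epha3 and Ephb1 differed so much among the Olig1-Gnas libraries that group means say little of them.

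Spread between mice was larger in the knockouts. The median SD of log2(FPKM + 1) over the 61 genes was 0.17 in Ctrl, 0.45 in Olig1-Gnas and 0.51 in hGFAP-Gnas, and 5 genes had an SD over 1, all in Olig1-Gnas: Epha3, Sema3f, Ephb1, Sema3e and Slit1. Epha3, an EphA receptor, was at 20.2, 23.5 and 16.3 FPKM in Olig1-Gnas 1, 2 and 5, at 5.32 FPKM in Olig1-Gnas 8 and at 0.0995 to 1.62 FPKM in the other 4, around Ctrl values of 5.59, 4.49 and 3.48 FPKM. That is a ratio of 236 between the highest and the lowest library of 1 genotype. Sema3f, a repellent read through neuropilin 2, was high in other mice: 15.5, 16.4 and 16.1 FPKM in Olig1-Gnas 3, 4 and 7, 7.94 FPKM in Olig1-Gnas 8 and 1.195 to 2.64 FPKM in Olig1-Gnas 1, 2, 5 and 6, with Ctrl at 3.25, 3.26 and 4.503 FPKM. Ephb1 divided the mice as Epha3 did, with 16.1, 14.96 and 16.4 FPKM in Olig1-Gnas 1, 2 and 5, and less in the other 5, down to 0.739 FPKM in Olig1-Gnas 3, beside Ctrl at 12.6, 14.2 and 15.2 FPKM. The mice high in Epha3 were thus high in Ephb1 and low in Sema3f. Neither gene of the Eph pair nor Sema3f was called in any comparison. Olig1-Gnas 1 to 4 are shallower libraries and Olig1-Gnas 5 to 8 deeper ones, and the part of depth in this division was not tested.

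**Figure D5:**
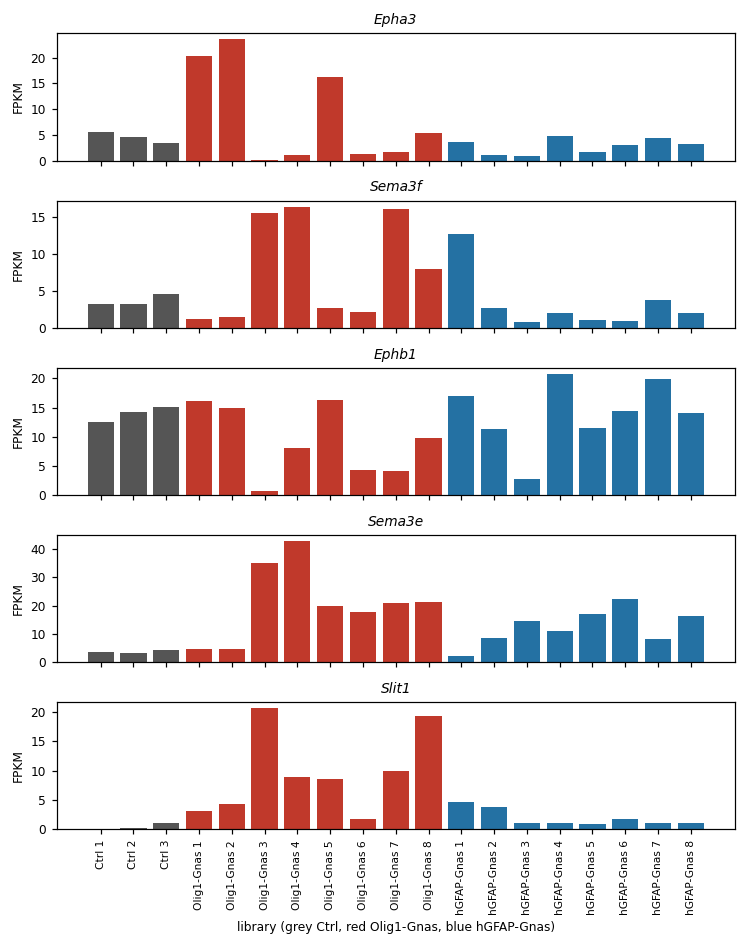
Bars give FPKM of the 5 genes with the largest spread among Olig1-Gnas libraries, in each of the 19 libraries (gray Ctrl, red Olig1-Gnas, blue hGFAP-Gnas). Epha3 and Ephb1 are high in Olig1-Gnas 1, 2 and 5, where Sema3f is at 1.195 to 2.64 FPKM.

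Between the knockouts, 1 of 58 guidance genes tested was called and 57 were not; Epha6, Epha10 and Slit2 were too low to be tested. No gene was called higher in Olig1-Gnas than in hGFAP-Gnas by limma, beside 0.146% of all 14386 genes. In that direction 4 of the 58 had an unadjusted p under 0.05, a smaller share than the 10.2% of all genes. Called lower was 1, beside 0.264%, and 13 of the 58 had an unadjusted p under 0.05, a larger share than the 13.5% of all genes. In either direction 0.41% of all genes were called. The called gene was Sema5a, a transmembrane semaphorin with thrombospondin repeats that can attract or repel axons. It was at 6.299, 5.48 and 8.78 FPKM in Ctrl, 0.165 to 2.83 FPKM (median 1.44) in Olig1-Gnas and 2.27 to 6.52 FPKM (median 4.91) in hGFAP-Gnas. All Olig1-Gnas libraries lay below Ctrl, 4 hGFAP-Gnas libraries did, and the knockout groups overlapped only through Olig1-Gnas 8 (2.83 FPKM) and hGFAP-Gnas 2 (2.27 FPKM). The difference between the knockouts was -1.21 ± 0.23 (SE), adjusted p = 0.0274. Against Ctrl it was -1.68 ± 0.31 (SE), adjusted p = 5.58e-04 in Olig1-Gnas and -0.48 ± 0.27 (SE), adjusted p = 0.172 in hGFAP-Gnas. The call between the knockouts was lost in 13 of 29 other settings, among them the omission of Olig1-Gnas 1, 2, 4 or 5 or of hGFAP-Gnas 7 or 8, with adjusted p up to 0.659 and a difference that stayed between -1.74 and -0.87. Y-linked signal (Ddx3y of at least 1 FPKM), found in 7 of the 8 hGFAP-Gnas mice and 2 of the 8 Olig1-Gnas mice, was nearly confounded with this comparison, and the call was also lost with it as a term. Slit1 had the largest difference in the other direction, 1.68 ± 0.41 (adjusted p = 0.0798), and others were differences of -0.93 ± 0.33 for Slit3, -0.92 ± 0.33 for Unc5c and -0.92 ± 0.23 for Sema3a, none of them called. They missed the threshold after adjustment over all genes, and a p that misses it does not show that the knockouts are alike.

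Genes that assist or follow these receptors were counted as 5 lists, 94 genes in all. Of 91 tested in Olig1-Gnas, 34 were called higher and 33 lower, and of 91 in hGFAP-Gnas 29 and 26; between the knockouts none of 90 was. Of all genes 36.2% were called higher and 23.6% lower in Olig1-Gnas and 26.1% and 12.8% in hGFAP-Gnas, and these shares are the background for each list that follows (59.8% and 38.9% in either direction). Coreceptors and other guidance receptors had 6 higher and 5 lower of 17 in Olig1-Gnas and 7 and 4 in hGFAP-Gnas. Beside Dcc they were led by Cxcr4, the receptor of the chemokine Cxcl12, which went from 3.76 ± 1.82 FPKM to 71.6 to 173 FPKM (median 113) in Olig1-Gnas and 3.49 to 133 FPKM (median 74.96) in hGFAP-Gnas (4.65 ± 0.26 and 3.69 ± 0.86, adjusted p = 3.82e-08 and 0.012). Cdon, a hedgehog and netrin coreceptor, went from 8.75 ± 1.52 FPKM to 0.286 to 2.52 FPKM (median 0.404) in Olig1-Gnas and 0.428 to 12.8 FPKM (median 1.21) in hGFAP-Gnas. Its differences were -2.48 ± 0.34 and -1.73 ± 0.62 (adjusted p = 0.0466 in hGFAP-Gnas). Against Olig1-Gnas, Cdon passed the filter only with the Ctrl libraries, so no test of it is given there. In hGFAP-Gnas, hGFAP-Gnas 1 was within or beyond Ctrl for both Cxcr4 and Cdon. Nrp2, the coreceptor of Sema3f, is counted here as not called in Olig1-Gnas, where the deposited table lists Ctrl 1 at 0, and as higher in hGFAP-Gnas (0.72 ± 0.23 (SE), adjusted p = 0.0311), where the other table gives the same library 2.56 FPKM.

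Other guidance ligands had 4 higher and 7 lower of 16 in Olig1-Gnas (59.8% of all genes called), and 4 and 6 in hGFAP-Gnas (38.9%). The adhesion proteins Slitrk4 and Slitrk1 fell in both knockouts, Slitrk4 from 11.3 ± 3.15 FPKM with differences of -2.99 ± 0.36 and -2.03 ± 0.53 and Slitrk1 from 18.3 ± 1.53 FPKM with differences of -2.15 ± 0.39 and -1.39 ± 0.42 (adjusted p of 0.0263 or less). Plexin signaling genes had 7 higher and 6 lower of 20, and 6 and 4, beside the same shares of all genes. The MICAL enzymes, which oxidize actin downstream of plexins, were divided: Mical1 went from 3.103 ± 0.418 to 50.9 ± 22.5 and 37.5 ± 24.6 FPKM (3.56 ± 0.32 and 2.93 ± 0.59), and Mical2 from 65.4 ± 4.16 to 10.6 ± 7.75 and 18.5 ± 16.03 FPKM (-2.77 ± 0.47 and -2.10 ± 0.53), with adjusted p of 0.0151 or less for each. The microglia and macrophage sum was higher in the knockouts too, as given above; its part was not tested.

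Eph signaling genes had 5 higher and 6 lower of 16 in Olig1-Gnas and 4 and 6 in hGFAP-Gnas, beside 59.8% and 38.9% of all genes called. Chn2, a Rac inhibitor of the chimaerin family that is also 1 of the 12 granule neuron markers, went from 323 ± 35.8 to 26.4 ± 42.1 and 97.8 ± 114 FPKM (-5.06 ± 1.17 and -2.64 ± 0.96, adjusted p = 0.00381 and 0.0481). Vav2, a Rac activator recruited by Eph receptors, went from 4.53 ± 0.217 to 28.1 ± 6.03 and 19.4 ± 7.63 FPKM (2.37 ± 0.18 and 1.77 ± 0.37, adjusted p = 4.54e-07 and 0.00949). Genes of Robo and Dcc signaling had 12 higher and 9 lower of 22, and 8 and 6, beside the same 59.8% and 38.9%. The largest changes there were falls: the kinase Pak1 from 223 ± 40.8 to 30.3 ± 19.7 and 74.9 ± 70.3 FPKM and the actin binders Ablim3 and Ablim1 from 33.5 ± 4.48 to 3.402 ± 2.91 and 10.5 ± 8.79 and from 81.6 ± 8.503 to 13.2 ± 11.7 and 29.8 ± 28.2 FPKM. Their differences were between -3.23 and -2.94 in Olig1-Gnas and between -2.04 and -1.90 in hGFAP-Gnas, with adjusted p of 0.0404 or less.

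Position relative to Ctrl was read for each library over the called genes. In Olig1-Gnas, 6 libraries lay beyond all Ctrl on the called side for 38 of 38 genes, Olig1-Gnas 1 for 37 and Olig1-Gnas 6 for 35. In hGFAP-Gnas, 7 libraries did so for 23 of 23 genes and hGFAP-Gnas 1 for 16. The calls were made with these same libraries, so the counts describe how evenly the change was shared and test nothing.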

How the data were processed

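Per the labels' protocols, cerebella were frozen, RNA was extracted with Trizol and RNeasy columns, and TruSeq libraries were sequenced on a HiSeq. Per the submitters' processing notes TopHat, Cufflinks and mm9 were used; their versions, the annotation and the strand setting are not stated there, and genes on opposite strands at 1 place cannot be told apart. The authors deposited FPKM of 22193 genes in 2 tables, 1 per knockout, each with the Ctrl libraries. Ctrl 1 differs between them in 5106 genes, 14 of them guidance genes (ratios of 0.999 to 1.00). Depth in reads is unknown.

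Each pair of groups was fitted on its own with limma 3.58.1 (R 4.3.3; trend and robust) on log2(FPKM + 1), over genes that reached 1 FPKM in 3 or more of the libraries compared. P-values were adjusted over all genes by Benjamini-Hochberg and called under 0.05. The steps were tested on simulated data with 200 planted genes. Tables and figures used Python 3.11.15, pandas 2.3.3 and matplotlib 3.10.9.

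The genes, the lists of other pathway genes and the cell type markers were chosen with earlier results of these data known. Genes were named by size of change (12 in each direction against Ctrl, 6 between knockouts), by highest level or largest called change in their family, and otherwise where a family is accounted for in full; of each list up to 3 called genes were named. Draxin and Grb4 of the lists were not matched by symbol. Fits were repeated with an offset of 0.1, with no filter or one at 5 FPKM, with other scaling, moderation, design, threshold or treatment of zeros, and without each library. Promoters are from RefSeq (GRCm38.p6) and gene locations from the deposited tables (mm9, with 1 added to their starts).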

Additional observations from a re-analysis of the deposited data

Results flagged for a closer look

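Single libraries stood apart from the other 7 of their group in 14 of 122 gene and group pairs, by Dixon's ratio of log2(FPKM + 1) at the 95% level. Chance alone gives about 1 in 20 for independent pairs. These pairs share the same libraries and are not independent, so the count tests nothing. The 14 fell on 3 libraries. Olig1-Gnas 6 was the lowest of its group for Sema7a (60.2 FPKM, the others 161 to 306), Ephb2 (8.05 FPKM, others 18.7 to 38.0), Plxna3 (13.0 FPKM, others 22.0 to 26.0) and Efna4 (1.68 FPKM, others 5.56 to 12.7), and the highest for Sema4c (35.6 FPKM, others 18.1 to 24.5) and Epha6 (0.385 FPKM, others at most 0.124). hGFAP-Gnas 1 was the lowest of its group for Efna2 (2.81 FPKM, others 5.63 to 8.88) and Efnb1 (1.64 FPKM, others 3.61 to 5.58), and the highest for Sema3f (12.7 FPKM, others 0.836 to 3.75) and Epha10 (3.98 FPKM, others at most 0.792). hGFAP-Gnas 3 was the highest for Epha2 (9.25 FPKM, others 0.857 to 2.79) and Sema4b (14.6 FPKM, others 7.04 to 9.76), and the lowest for Ephb1 (2.66 FPKM, others 11.2 to 20.8) and Sema4f (4.37 FPKM, others 14.6 to 24.0).

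Sema5a differed between the knockouts by -1.21 on the log2 scale, with a mean of 1.53 FPKM in Olig1-Gnas and 4.77 FPKM in hGFAP-Gnas (limma, adjusted p = 0.0274).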

How the results depend on the processing

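No called gene changed direction under any alternative. For Olig1-Gnas against Ctrl, the 18 higher calls became 11 with at least 2-fold change required, and the 20 lower calls 13 with a filter at 5 FPKM. That filter left fewer genes to test, and all 30 called genes still tested under it kept their calls. With the replicate block they were 18 and 22, but that fit kept only the 3 replicate numbers found in both groups. The shallower libraries alone hold 1 Ctrl, Ctrl 3, so counts from them against Ctrl have no spread among Ctrl mice behind them. Such counts are left out for Olig1-Gnas. For hGFAP-Gnas they are listed below only to complete the settings, and no conclusion is drawn from them. For hGFAP-Gnas against Ctrl, the 14 higher and 9 lower calls became 9 and 15 with quantile normalization (5332 of all genes called, 49.0% of them higher), 0 and 0 with the replicate block (2 of all 13472 genes called), 0 and 0 with the deeper libraries alone (6 of all 13872), 8 and 2 with the shallower alone, 3 and 2 at an adjusted p under 0.01, and 9 and 5 with at least 2-fold change. Leaving out 1 library at a time gave 2 to 20 higher and 1 to 19 lower. Between the knockouts, the 0 higher and 1 lower calls became 1 and 2 with 1 fit of all 3 groups; the lower call became 2 with depth class as a term and 0 with an offset of 0.1, the 5 FPKM filter, quantile normalization, the replicate block, the Y-linked term, the deeper or the shallower libraries alone, and an adjusted p under 0.01. Leaving out 1 library gave 0 to 1 higher and 0 to 2 lower. The cause of these changes was not tested.

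Replicate numbers do not pair the mice: same-numbered libraries had correlations of their deviations from the group means between -0.18 and 0.051 for Olig1-Gnas and Ctrl, -0.098 and 0.12 for hGFAP-Gnas and Ctrl, and -0.17 and 0.25 for the knockouts. With only 3 Ctrl libraries and unknown read depth, genes under about 1 FPKM are the least certain.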
